A study of Homo sapiens with 12 samples.

Results

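The genes described here encode 10 enzymes that exchange the acyl chains of membrane phospholipids. They were chosen by name from the lipid remodelling pathway, with earlier results of these data known. All 10 were found under the same gene identifier in both deposited count tables. KYSE30 has 30984 listed genes, U138MG has 78691, and 30358 identifiers are shared. Poly-A RNA was sequenced from wild-type KYSE30, an established esophageal squamous cell carcinoma line, and from wild-type U138MG, an established glioblastoma line. Each line was exposed for 48 h to 100 nM of PTDSS1i, an inhibitor of phosphatidylserine synthase 1 (*PTDSS1*), or to its vehicle DMSO, with 3 biological replicates in each of the 4 groups. The KYSE30 libraries are labelled as batch 1 and the U138MG libraries as batch 2, so cell line and batch cannot be told apart, and the labels give the KYSE30 culture medium for every sample.

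Phospholipids made by de novo synthesis are edited afterwards in what is known as the Lands cycle. A phospholipase A2 removes the fatty acid at the middle position of the glycerol backbone, and a lysophospholipid acyltransferase attaches another fatty acid from acyl-CoA, which sets how saturated and how fluid each membrane becomes. The acyltransferases fall into the AGPAT-related enzymes (*LPCAT1*, *LPCAT2*, *LPCAT4*, *LCLAT1*, *LPGAT1*) and the membrane-bound O-acyltransferases (*LPCAT3*, *MBOAT1*, *MBOAT2*, *MBOAT7*), while *PLA2G4A* encodes the cytosolic phospholipase A2 that releases arachidonic acid. The enzyme encoded by *PTDSS1* can make phosphatidylserine from phosphatidylcholine or phosphatidylethanolamine. Its lipid substrates and the lipids derived from its product are thus all substrates of this cycle.

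The libraries held between 18800932 and 26514658 counts. In U138MG every PTDSS1i library, at 22839892 to 26514658 counts, was deeper than every DMSO library, at 19141002 to 22304205, and the part of depth in the results was not tested. All 10 genes passed the filter on low counts in both lines, and the lowest count of any of them in any library was 33. The libraries labelled U138MG went against their label on defining markers. *OLIG2* and *S100B* were at 0 in all of them, *GFAP* averaged 2.36 ± 0.183 CPM (counts scaled to library depth; SD, n = 3) in DMSO, and 8 squamous epithelial markers summed to between 6921 and 7717 CPM in DMSO and between 1773 and 1896 CPM in PTDSS1i. The same 8 markers summed to between 921 and 988 CPM in KYSE30 DMSO and between 1169 and 1201 CPM in KYSE30 PTDSS1i. A list of 8 glial and mesenchymal markers summed to between 125 and 134 CPM in U138MG DMSO, where 4 of the 8 averaged over 1 CPM, and to between 60.8 and 67.1 CPM in U138MG PTDSS1i. In KYSE30, where 6 of those 8 are listed, the sums were 188 to 231 CPM in DMSO and 155 to 159 CPM in PTDSS1i. These sums rest on few genes. Most of the glial and mesenchymal sum in DMSO came from *SOX2* and *FN1*, at 99.4 and 98.3 CPM in KYSE30 and 38.9 and 75.8 CPM in U138MG. In KYSE30 DMSO *CDH2* averaged 6.26, *VIM* 3.99, *NES* 0.336 and *GFAP* 0 CPM. In U138MG DMSO *CDH2* averaged 11.9, *VIM* 0.206 and *NES* 0.556 CPM. In KYSE30 DMSO most of the squamous sum came from *CDH1* (514 CPM) and *EPCAM* (280 CPM). There *TP63* averaged 98.2, *KRT15* 41.3, *DSG3* 17.4, *KRT6A* 5.22, *KRT14* 0.355 and *KRT5* 0.0608 CPM. In U138MG most of the squamous sum and of its fall came from *KRT15* and *KRT5*. *KRT15* went from 4629 to 482 normalized CPM and *KRT5* from 1399 to 554. Of 7 squamous markers tested there 4 fell and 3 rose (*KRT6A*, *EPCAM* and *DSG3*). *KRT6A* was low, at 0.464 normalized CPM in DMSO and 1.29 in PTDSS1i. *KRT14*, at 0.189 normalized CPM in U138MG DMSO, did not pass the filter on low counts. Of 5 glial and mesenchymal markers tested in U138MG, 3 fell (*GFAP*, *SOX2* and *FN1*) and 1 rose (*NES*, from 0.530 to 2.16 normalized CPM). *VIM* did not pass the filter on low counts in U138MG, at 0.196 normalized CPM in DMSO and 0.390 in PTDSS1i. Exons of *GFAP* and *VIM* overlap those of genes on the opposite strand in the annotation used here, so their reads may not be separated. In KYSE30 5 of 7 squamous markers rose and 1 fell (*TP63*), and of 4 glial and mesenchymal markers 2 rose (*VIM*, from 3.87 to 25.5 normalized CPM, and *CDH2*) and 1 fell (*FN1*, from 94.6 to 38.8). The part of these marker differences in the results was not tested. Values given for U138MG are those of the libraries that carry this label.

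The remodelling genes were first ranked by their level in DMSO, in reads per kilobase of annotated exon and depth (RPKM), the scale on which genes of different length can be compared. *MBOAT7*, which encodes the acyltransferase that places arachidonic acid on lysophosphatidylinositol, had the highest level in both lines, with a mean of 57.5 RPKM in KYSE30 and 37.7 RPKM in U138MG. *PLA2G4A* had the lowest in both, at 0.842 RPKM in KYSE30 and 3.41 RPKM in U138MG.

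Between these ends the order differed between the lines. In KYSE30, *MBOAT7* was followed by *LPCAT3* (17.0 RPKM), *LPCAT2* (15.6), *MBOAT1* (15.4), *LPGAT1* (11.7), *LPCAT1* (11.1), *MBOAT2* (6.69), *LPCAT4* (6.67) and *LCLAT1* (2.87). The libraries of *LPCAT2* and *MBOAT1* overlapped, as did those of *LPGAT1* and *LPCAT1* and those of *MBOAT2* and *LPCAT4*, so these neighbours were not separated by the spread between replicates. In U138MG, *MBOAT7* was followed by *LPCAT1* (30.7 RPKM), *MBOAT1* (23.5), *LPGAT1* (11.0), *MBOAT2* (10.4), *LPCAT3* (10.2), *LPCAT4* (8.74), *LCLAT1* (5.74) and *LPCAT2* (5.43). Here *MBOAT2* and *LPCAT3* were the only neighbours whose libraries overlapped. The RPKM of *MBOAT1* rests on an annotated exon length of 1794 bases, the shortest of the 10, taken from an annotation that may differ from the one the authors used. *LPCAT3* shares 3100 of its 4725 exon bases with *EMG1* on the opposite strand, so its level and rank may be affected by reads of *EMG1*.

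**Figure D1:**
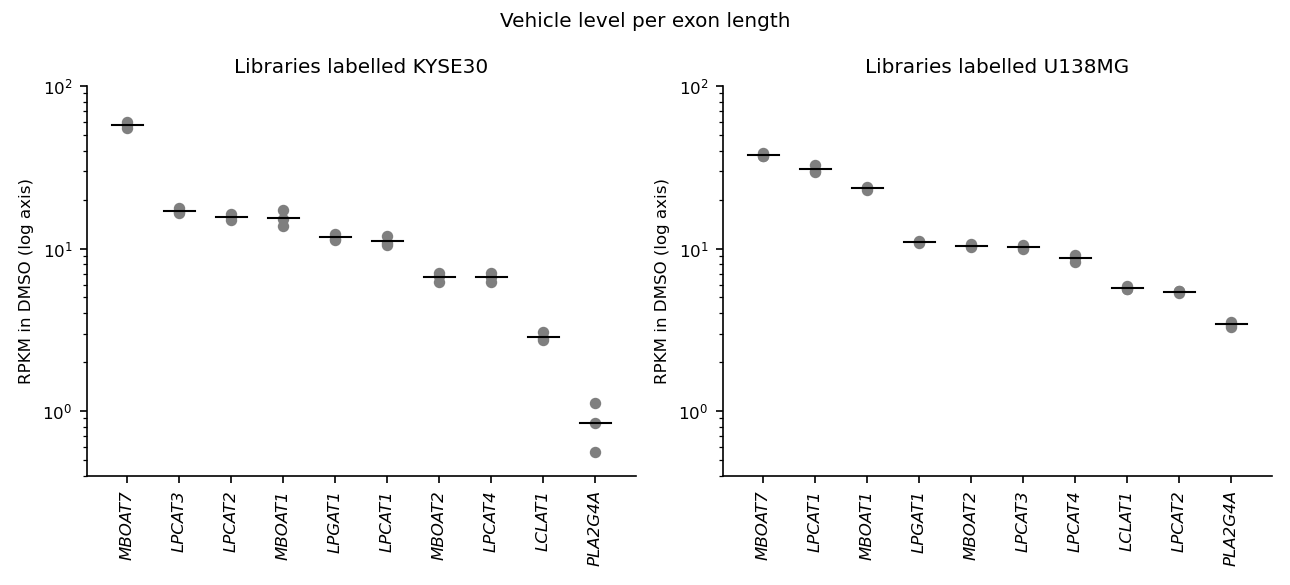
Level of each remodelling gene in the DMSO libraries, in RPKM on a log axis, for KYSE30 (left) and U138MG (right), with genes ordered by their mean. Points are the 3 libraries and bars their mean. *MBOAT7* stood first in both lines, at 57.5 and 37.7 RPKM, and *PLA2G4A* last, at 0.842 and 3.41 RPKM, while *LPCAT1* stood sixth in KYSE30 and second in U138MG.

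Set side by side as CPM without further scaling, the DMSO levels of *LPCAT1* and *LPCAT2* were arranged in opposite ways in the lines. *LPCAT1* averaged 74.4 ± 3.23 CPM in KYSE30 and 209 ± 11.6 CPM in U138MG, a 2.81-fold higher level in U138MG (SD, n = 3). *LPCAT2* averaged 121 ± 8.08 CPM in KYSE30 and 42.4 ± 0.792 CPM in U138MG, a 2.84-fold higher level in KYSE30. *PLA2G4A* was 4.09-fold and *LCLAT1* 2.03-fold higher in U138MG, and *LPGAT1* was the only gene of the 10 whose DMSO libraries overlapped between the lines, with means of 107 and 101 CPM. These are descriptions with no test, since the tables came from separate batches.

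Treated and vehicle libraries of a line were set against each other by edgeR's quasi-likelihood test, with p-values adjusted over all tested genes by the Benjamini-Hochberg method and a gene called at an adjusted p under 0.05. In KYSE30, 4 of the 10 genes rose (*LPCAT1*, *LPCAT4*, *MBOAT2* and *MBOAT7*), 4 fell (*LPCAT2*, *MBOAT1*, *LCLAT1* and *LPGAT1*), and *LPCAT3* and *PLA2G4A* were not called. Of all 16389 genes tested in KYSE30, 30.1% were called higher and 32% lower, 62% in all, so the counts of 4 and 4 lay near the background. In U138MG, 7 of the 10 rose (*LPCAT1*, *LPCAT3*, *LPCAT4*, *MBOAT2*, *MBOAT7*, *LCLAT1* and *PLA2G4A*) and 0 fell, with *LPCAT2*, *MBOAT1* and *LPGAT1* not called. Of all 17666 genes tested there, 33.9% were called higher and 33.6% lower, 67.5% in all. The count of 0 lower genes in U138MG was the same at an unadjusted p under 0.05 in edgeR and by DESeq2, but *LPCAT2* and *MBOAT1* were called lower, making 2, when libraries were scaled by their size alone or by the upper quartile.

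The median log2 fold change of the 10 genes was 0.0053 in KYSE30, beside -0.025 over all tested genes, and 0.40 in U138MG, beside -0.026. No gene of the 10 passed an absolute log2 fold change of 1 in KYSE30, a count of 0 by edgeR and by DESeq2, where 6.4% of all genes did so as higher and 7.04% as lower, 13.4% in all. *LPCAT1* and *PLA2G4A* passed it in U138MG, where 8.19% of all genes were called higher and 11.6% lower by this rule, 19.8% in all. The normalized CPM of the treated and vehicle libraries did not overlap for 6 of the 10 in KYSE30, with a background of 66.3%, and for 8 of the 10 in U138MG, with a background of 71.4%. Scaling by library size alone moved the median of all tested genes to -0.13 in KYSE30 and -0.17 in U138MG and the share of higher genes among the calls from 48.5% to 37.8% and from 50.2% to 37.1%. Under it the remodelling genes counted 3 higher and 4 lower in KYSE30 and 6 higher and 2 lower in U138MG.

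**Figure D2:**
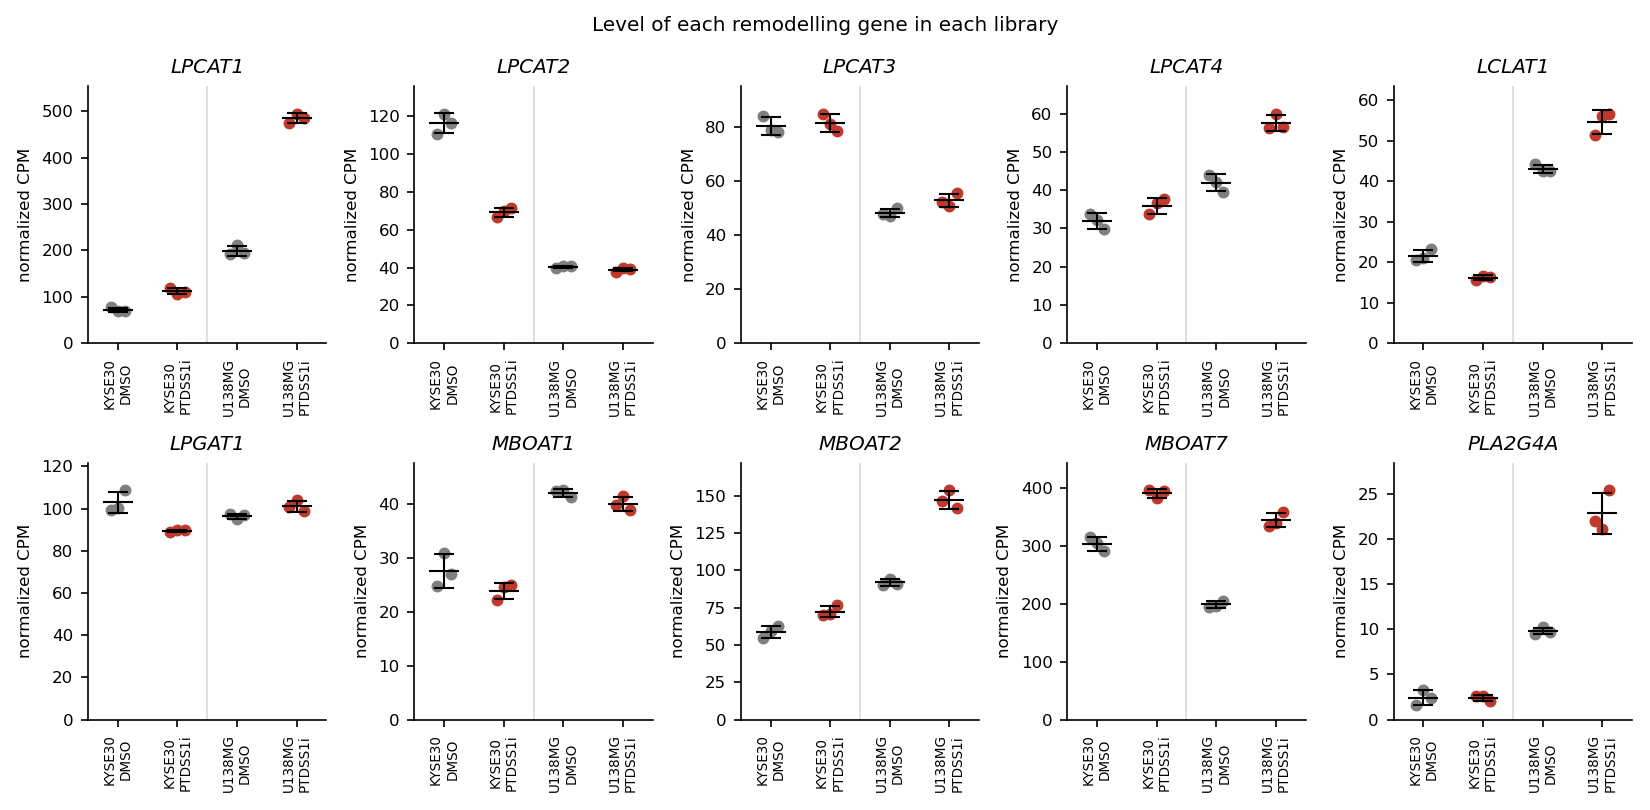
Normalized CPM (TMM-scaled) of each remodelling gene in each of the 12 libraries, DMSO in grey and PTDSS1i in red, with the mean and SD of 3 libraries as black bars. *LPCAT1* moved from 199 to 485 in U138MG and from 71.9 to 112 in KYSE30, and *LPCAT2* from 116 to 69.3 in KYSE30 and from 40.4 to 38.9 in U138MG.

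Among the lysophosphatidylcholine acyltransferases, *LPCAT1*, which attaches saturated chains such as palmitate in lung surfactant and many tumors, rose in both lines. In KYSE30 its normalized CPM (scaled by TMM, the trimmed mean of M-values) was 77.3, 68.4 and 70.1 in DMSO and 119.6, 106.9 and 110.7 in PTDSS1i. All PTDSS1i libraries lay above all DMSO libraries, and the log2 fold change was 0.64 with a standard error (SE) of 0.059 and an adjusted p of 4.38e-09 (edgeR). In U138MG the values were 191, 212 and 194 in DMSO and 474, 495 and 486 in PTDSS1i. The groups were again separate, and the log2 fold change was 1.28 (SE 0.038, edgeR adjusted p = 6.48e-22). As in any bulk measurement, a change in RNA per cell and a change in the share of cells that hold the RNA cannot be told apart.

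*LPCAT2*, the inducible enzyme that also makes platelet-activating factor in inflammatory cells, fell in KYSE30. It read 110.9, 121.5 and 116.7 normalized CPM in DMSO and 66.7, 69.8 and 71.5 in PTDSS1i, with no overlap and a log2 fold change of -0.75 (SE 0.054, edgeR adjusted p = 1.01e-10). In U138MG it read 39.7, 40.9 and 40.65 in DMSO and 37.9, 39.8 and 39.2 in PTDSS1i. These groups overlapped, and the log2 fold change of -0.054 (95% interval -0.16 to 0.06) was not called (edgeR adjusted p = 0.386). In the annotation used here an exon of *LPCAT2* shares 190 bases with the lincRNA *AC007336.1* on the same strand, so a part of its reads may be split or lost.

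*LPCAT3*, the sterol-regulated enzyme that adds linoleic and arachidonic acid to phosphatidylcholine, had small fold changes in both lines. In KYSE30 its 3 DMSO libraries held 84.2, 78.9 and 78.2 normalized CPM and its PTDSS1i libraries 85.1, 81.3 and 78.5, with a log2 fold change of 0.022 (95% interval -0.09 to 0.14; edgeR adjusted p = 0.744). In U138MG it held 47.9, 46.95 and 50.01 in DMSO and 52.3, 50.9 and 55.7 in PTDSS1i, separate groups with a log2 fold change of 0.13 (SE 0.051, edgeR adjusted p = 0.0221). That call was lost in 7 of 14 alternatives of scaling, test, filter, block or left-out library. Among these were leaving out DMSO replicate 1 (edgeR adjusted p = 0.0611), DMSO replicate 2 (0.0902) or PTDSS1i replicate 3 (0.0928), and with library size alone or the upper quartile the sign turned, to -0.013 and -0.011. Exons of *LPCAT3* and of *EMG1*, on the opposite strand, share 3100 bases, and the strand setting of the counting is not given in the sources used here, so reads of these genes may not be separated.

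*LPCAT4*, which prefers oleoyl-CoA and lysophosphatidylethanolamine, rose in U138MG from 44.0, 42.2 and 39.5 normalized CPM in DMSO to 56.2, 60.0 and 56.6 in PTDSS1i. The log2 fold change was 0.46 (SE 0.052, edgeR adjusted p = 1.03e-08), and the libraries did not overlap. In KYSE30 it held 33.9, 32.3 and 29.9 in DMSO and 33.7, 36.55 and 37.6 in PTDSS1i, where the lowest treated library lay inside the DMSO range. The log2 fold change there was 0.17 (SE 0.069, edgeR adjusted p = 0.0375), and this call was lost in 8 of 14 alternatives. It was lost without DMSO replicate 2 (edgeR adjusted p = 0.0643), DMSO replicate 3 (0.198), PTDSS1i replicate 2 (0.104) or PTDSS1i replicate 3 (0.157), and by DESeq2 (0.0598).

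Among the MBOAT genes, *MBOAT7* and *MBOAT2* rose in both lines. *MBOAT7* held 315.6, 306.4 and 291.6 normalized CPM in KYSE30 DMSO and 397.2, 382.9 and 395.5 in KYSE30 PTDSS1i, a log2 fold change of 0.36 (SE 0.051, edgeR adjusted p = 2.10e-06). In U138MG its values were 195.5, 196.8 and 205.5 in DMSO and 334.9, 341.0 and 358.6 in PTDSS1i, a log2 fold change of 0.79 (SE 0.036, edgeR adjusted p = 1.48e-17). The treated and vehicle libraries of *MBOAT7* were separate in both lines.

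*MBOAT2*, whose enzyme transfers monounsaturated chains to lysophosphatidylethanolamine and lysophosphatidic acid, held 54.7, 59.4 and 62.6 normalized CPM in KYSE30 DMSO and 70.2, 70.5 and 76.45 in KYSE30 PTDSS1i. The log2 fold change was 0.30 (SE 0.061, edgeR adjusted p = 0.00022). In U138MG it held 90.1, 94.2 and 91.1 in DMSO and 146.0, 153.7 and 141.9 in PTDSS1i, with a log2 fold change of 0.68 (SE 0.040, edgeR adjusted p = 5.36e-15). As with *MBOAT7*, no treated library of *MBOAT2* reached down to the vehicle range in either line.

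*MBOAT1*, whose enzyme acts on lysophosphatidylserine and lysophosphatidylethanolamine with oleoyl-CoA, did not follow *MBOAT2* and *MBOAT7*. In KYSE30 it held 24.8, 31.0 and 27.1 normalized CPM in DMSO and 22.2, 24.6 and 24.97 in PTDSS1i. The groups overlapped, the log2 fold change was -0.20 (SE 0.081, edgeR adjusted p = 0.0345), and the call was lost in 6 of 14 alternatives. It was lost without DMSO replicate 2 (edgeR adjusted p = 0.188), DMSO replicate 3 (0.0611), PTDSS1i replicate 1 (0.164) or PTDSS1i replicate 2 (0.0575), and by DESeq2 (0.0982). In U138MG it held 42.5, 42.6 and 41.3 in DMSO and 39.9, 41.5 and 38.97 in PTDSS1i, and its log2 fold change of -0.072 (95% interval -0.18 to 0.04) was not called (edgeR adjusted p = 0.243). Antisense transcripts are annotated over exons of *MBOAT1* (AL158198.1, 42 bases) and of *LPGAT1* (AL445488.1, 73 bases), and their reads may not be separated without strand.

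*LCLAT1* and *LPGAT1* encode acyltransferases of the anionic phospholipids, the first acting on lysocardiolipin and lysophosphatidylinositol and the second first described on lysophosphatidylglycerol. *LCLAT1* was the gene of the 10 called in opposite directions. In KYSE30 it held 20.5, 21.0 and 23.2 normalized CPM in DMSO and 15.5, 16.7 and 16.4 in PTDSS1i, a log2 fold change of -0.42 (SE 0.080, edgeR adjusted p = 0.000104). In U138MG it held 44.3, 42.6 and 42.5 in DMSO and 51.3, 56.0 and 56.7 in PTDSS1i, a log2 fold change of 0.34 (SE 0.052, edgeR adjusted p = 1.46e-06). Its libraries were separate in both lines, with the treated group below the vehicle group in KYSE30 and above it in U138MG.

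*LPGAT1* fell in KYSE30, from 99.6, 100.4 and 108.8 normalized CPM in DMSO to 89.1, 89.9 and 89.8 in PTDSS1i, a log2 fold change of -0.20 (SE 0.053, edgeR adjusted p = 0.00232) with separate groups. In U138MG it held 97.3, 95.1 and 97.05 in DMSO and 100.6, 104.1 and 98.9 in PTDSS1i. These groups were separate too, but the log2 fold change of 0.069 (95% interval -0.01 to 0.15) was not called (edgeR adjusted p = 0.120). Without PTDSS1i replicate 3 it was called, at 0.091 with an edgeR adjusted p of 0.0487, and with library size alone or the upper quartile its sign turned, to -0.078 and -0.077.

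*PLA2G4A*, the only phospholipase of the 10, rose in U138MG and was at a low level in KYSE30. In U138MG it held 190, 239 and 219 raw counts in DMSO and 501, 459 and 636 in PTDSS1i, or 9.49, 10.2 and 9.72 normalized CPM against 21.98, 21.1 and 25.4. The groups were separate, and the log2 fold change was 1.22 (SE 0.089, edgeR adjusted p = 1.003e-12). In KYSE30 it held 33, 64 and 57 raw counts in DMSO and 55, 52 and 49 in PTDSS1i, or 1.61, 3.23 and 2.42 normalized CPM against 2.56, 2.65 and 2.02. All treated libraries lay inside the vehicle range, and the 95% interval of the log2 fold change, from -0.47 to 0.45 around -0.011 (edgeR adjusted p = 0.968), left changes of that size undetectable at this depth. Leaving out DMSO replicate 2 gave 0.23 and leaving out PTDSS1i replicate 3 gave 0.11, neither of them called.

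**Figure D3:**
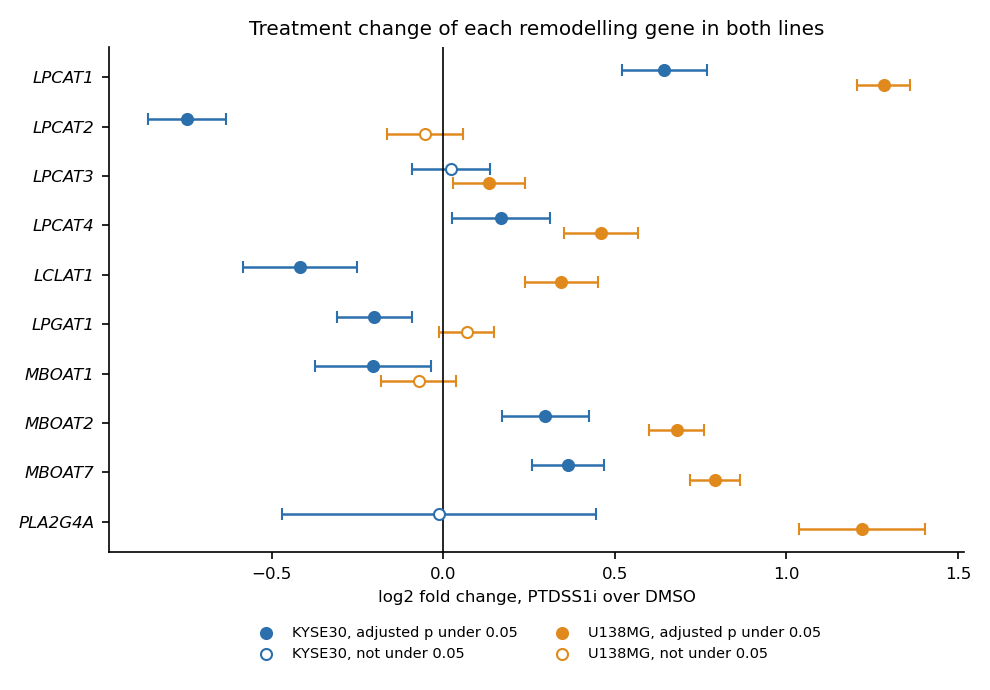
Log2 fold change of PTDSS1i over DMSO for each remodelling gene in KYSE30 (blue) and U138MG (orange), with 95% intervals from edgeR's quasi-likelihood fit. Filled points passed an adjusted p under 0.05. The U138MG point lay to the right of the KYSE30 point for all 10 genes, but the difference was not called for *LPCAT3* and *MBOAT1*. Over all genes in the fit of both lines the median difference was -0.026. *LCLAT1* had points on both sides of 0, at -0.42 and 0.34.

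Whether the treatment acted differently in the lines was tested by an interaction term in 1 fit to 18405 shared genes. For 8 of the 10 genes the fold change was more positive in U138MG, and for 0 it was more negative, by edgeR and by DESeq2 and also at an unadjusted p under 0.05. Of all genes tested, 25.5% were called more positive and 24.4% more negative in U138MG, 49.9% in all. The difference was widest for *PLA2G4A*, at 1.19 log2 units (95% interval 0.73 to 1.66; edgeR adjusted p = 4.75e-05). It was 0.72 for *LCLAT1* (0.53 to 0.92; edgeR adjusted p = 1.05e-07), 0.65 for *LPCAT2* (0.51 to 0.80; edgeR adjusted p = 4.57e-09) and 0.60 for *LPCAT1* (0.45 to 0.75; edgeR adjusted p = 3.14e-08).

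*MBOAT7* differed by 0.39 (0.26 to 0.51), *MBOAT2* by 0.34 (0.19 to 0.49), *LPCAT4* by 0.25 (0.07 to 0.43) and *LPGAT1* by 0.23 log2 units (0.10 to 0.36). The call for *LPCAT4* was lost in 5 of 18 alternatives, namely upper-quartile scaling (edgeR adjusted p = 0.199) and leaving out KYSE30 DMSO replicate 1 (0.0753), KYSE30 PTDSS1i replicate 1 (0.0911), U138MG DMSO replicate 3 (0.0859) or U138MG PTDSS1i replicate 2 (0.0701). For *LPGAT1* it was lost under upper-quartile scaling, where the difference was 0.12. The fold changes of *LPCAT3* and *MBOAT1* differed by 0.073 (-0.08 to 0.23) and 0.093 (-0.11 to 0.29), with edgeR adjusted p-values of 0.451 and 0.462, and under upper-quartile scaling both turned sign, to -0.038 and -0.018. Upper-quartile scaling moved the median difference over all genes from -0.026 to -0.13 and the share of more positive calls from 51.2% to 41.5%, and under it 6 of the 10 genes were called. *LPCAT1*, *LPCAT2*, *MBOAT2*, *MBOAT7*, *LCLAT1* and *PLA2G4A* kept their calls in 18 of 18 alternatives.

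Genes called higher in both lines were *LPCAT1*, *LPCAT4*, *MBOAT2* and *MBOAT7*, and 0 were called lower in both. The KYSE30 call of *LPCAT4* held in 6 of 14 alternatives. Of all tested genes 30.1% were called higher in KYSE30 and 33.9% in U138MG, and 32% and 33.6% lower. The share of all genes called alike in both lines was not counted, so these shared calls have no background of their own. *LPCAT1*, *MBOAT2*, *MBOAT7* and *LCLAT1* were called in both lines under 14 of 14 alternatives, the first 3 as higher in both and *LCLAT1* in opposite directions, and the 250 bases before their RefSeq start (build GRCh38.p14) are printed so that the upstream sequences of genes that moved alike and unlike can be compared. RefSeq promoter entries were matched for 8 of the 10 genes, with none for *LPCAT2* and *MBOAT1*. They comprise 10 windows, since *LPGAT1* has 3, so the counts of genes with a motif are counts over genes and the shares of all promoters are over windows. The windows lie at chr5:1523961-1524210 on the minus strand (*LPCAT1*), chr2:9003685-9003934 on the minus strand (*MBOAT2*), chr19:54189581-54189830 on the minus strand (*MBOAT7*) and chr2:30446996-30447245 on the plus strand (*LCLAT1*). Each is written 5′ to 3′ on the strand of its gene, in lower case, with capitals for the letters of 5 motifs searched on both strands.
LPCAT1: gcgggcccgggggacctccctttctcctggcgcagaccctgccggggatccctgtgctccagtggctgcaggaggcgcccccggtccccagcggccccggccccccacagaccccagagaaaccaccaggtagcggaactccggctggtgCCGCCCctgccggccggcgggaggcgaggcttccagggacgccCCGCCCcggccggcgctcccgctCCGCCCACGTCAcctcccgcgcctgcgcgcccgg
MBOAT2: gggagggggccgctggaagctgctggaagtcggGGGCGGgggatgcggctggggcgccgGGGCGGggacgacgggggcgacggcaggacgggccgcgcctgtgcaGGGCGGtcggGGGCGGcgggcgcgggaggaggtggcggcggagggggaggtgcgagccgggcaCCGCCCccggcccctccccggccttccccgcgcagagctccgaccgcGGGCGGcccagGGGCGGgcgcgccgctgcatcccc
MBOAT7: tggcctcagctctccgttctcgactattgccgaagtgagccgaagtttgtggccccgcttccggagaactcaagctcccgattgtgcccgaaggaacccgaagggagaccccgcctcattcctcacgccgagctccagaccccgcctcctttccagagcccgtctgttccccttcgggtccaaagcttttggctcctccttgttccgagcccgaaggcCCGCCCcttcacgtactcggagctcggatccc
LCLAT1: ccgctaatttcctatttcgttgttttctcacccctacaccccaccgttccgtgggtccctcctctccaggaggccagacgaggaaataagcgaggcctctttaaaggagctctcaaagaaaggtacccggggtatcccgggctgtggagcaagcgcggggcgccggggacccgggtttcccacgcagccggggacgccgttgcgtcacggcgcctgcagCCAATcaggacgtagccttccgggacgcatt

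The motifs searched were the CCAAT box (CCAAT), the GC box (GGGCGG, read as CCGCCC on the other strand), a C/EBP-ATF element (TGATGNAA), a sterol element (TCACNCCAC) and an unfolded protein response element (TGACGTG, read as CACGTCA on the other strand). In the *LPCAT1* window the capitals mark 3 GC boxes and 1 unfolded protein response element, whose first base lies at -29 from the start and overlaps the GC box at -34 by 1 base. The unfolded protein response element was found in 1 of the 8 genes, *LPCAT1*, and in 1.68% of all 35116 promoter windows of the same length. The capitals in *MBOAT2* mark 7 GC boxes, in *MBOAT7* 1 GC box and in *LCLAT1* 1 CCAAT box. GC boxes were found in 6 of the 8 genes and in 42.6% of all windows, and CCAAT boxes in 2 of the 8, *LPCAT3* and *LCLAT1*, and in 32% of all windows. The C/EBP-ATF and sterol letters were in 0 of the 10 windows, against 3.14% and 0.883% of all. The GC content was 78.8% in *LPCAT1*, 84% in *MBOAT2*, 62.8% in *MBOAT7* and 62.4% in *LCLAT1*, with a median of 58% over all windows. *PLA2G4A*, with 38.8% GC, held no match to the 5 motifs. Matches describe letters in these windows and not binding sites.

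The bodies of the printed genes lie, in the GENCODE 29 annotation of GRCh38, at chr5:1456480-1523977 (*LPCAT1*), chr2:8852690-9003813 (*MBOAT2*), chr19:54173412-54189882 (*MBOAT7*) and chr2:30447226-30644225 (*LCLAT1*). By these coordinates the whole printed window of *MBOAT7* lies inside its gene body. The windows of *LPCAT1*, *MBOAT2* and *LCLAT1* lie partly inside theirs. *LPCAT2* lies at chr16:55508998-55586670 and *PLA2G4A* at chr1:186828953-186988981. The identifiers in the deposited tables are ENSG00000153395 for *LPCAT1*, ENSG00000087253 for *LPCAT2*, ENSG00000143797 for *MBOAT2*, ENSG00000125505 for *MBOAT7*, ENSG00000172954 for *LCLAT1* and ENSG00000116711 for *PLA2G4A*.

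The composition of each family by RPKM was described with values already known, and no test was made of it. Families were grouped by gene symbol here. *LPCAT3*, a membrane-bound O-acyltransferase, was thus counted with the LPCAT genes and not with the MBOAT genes. The exon overlap of *LPCAT3* with *EMG1* is a limit of the LPCAT sums and shares too. In KYSE30, *LPCAT1* made up 21.97% ± 1.05 of the summed RPKM of the 4 LPCAT genes in DMSO and 33.7% ± 1.35 in PTDSS1i (SD, n = 3), while *LPCAT2* went from 31.1% ± 1.94 to 18.1% ± 0.909. The summed RPKM of the family was 50.4 ± 1.22 in DMSO and 51.4 ± 0.898 in PTDSS1i. In KYSE30 *LPCAT1* and *LPCAT2* thus changed places while the family sum overlapped between the groups.

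In U138MG, *LPCAT1* already made up 55.7% ± 1.52 of the family in DMSO and came to 72.4% ± 0.269 in PTDSS1i, and *LPCAT2* went from 9.87% ± 0.204 to 5.08% ± 0.0261. The family sum was 55.1 ± 1.54 RPKM in DMSO and 103 ± 2.06 RPKM in PTDSS1i. A share falls when the sum rises, even if the gene itself does not change. *LPCAT2* in U138MG held 40.4 normalized CPM in DMSO and 38.9 in PTDSS1i and was not called. The ratio of *LPCAT1* to *LPCAT2* in RPKM was 0.710 ± 0.0792 in KYSE30 DMSO and 1.86 ± 0.168 in KYSE30 PTDSS1i, and 5.64 ± 0.251 and 14.3 ± 0.0649 in U138MG. The ratio was higher in all PTDSS1i libraries than in all DMSO libraries of the same line.

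Of the summed RPKM of *MBOAT1*, *MBOAT2* and *MBOAT7*, without *LPCAT3*, *MBOAT7* went from 72.3% ± 2.26 to 77.4% ± 1.05 in KYSE30. In U138MG it went from 52.6% ± 1.03 to 62.5% ± 1.48. *MBOAT1* went from 19.3% ± 1.88 to 13.96% ± 0.853 in KYSE30 and from 32.8% ± 0.824 to 21.5% ± 0.783 in U138MG. Its share fell in U138MG while its level, at 42.1 normalized CPM in DMSO and 40.1 in PTDSS1i, was not called and the sum rose. *MBOAT2* held 8.42% and 8.601% in KYSE30 and 14.6% and 16.0% in U138MG. Summed over all 10 genes, RPKM was 145 ± 2.37 in DMSO and 160 ± 1.81 in PTDSS1i in KYSE30, and 147 ± 1.66 and 234 ± 4.55 in U138MG.

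**Figure D4:**
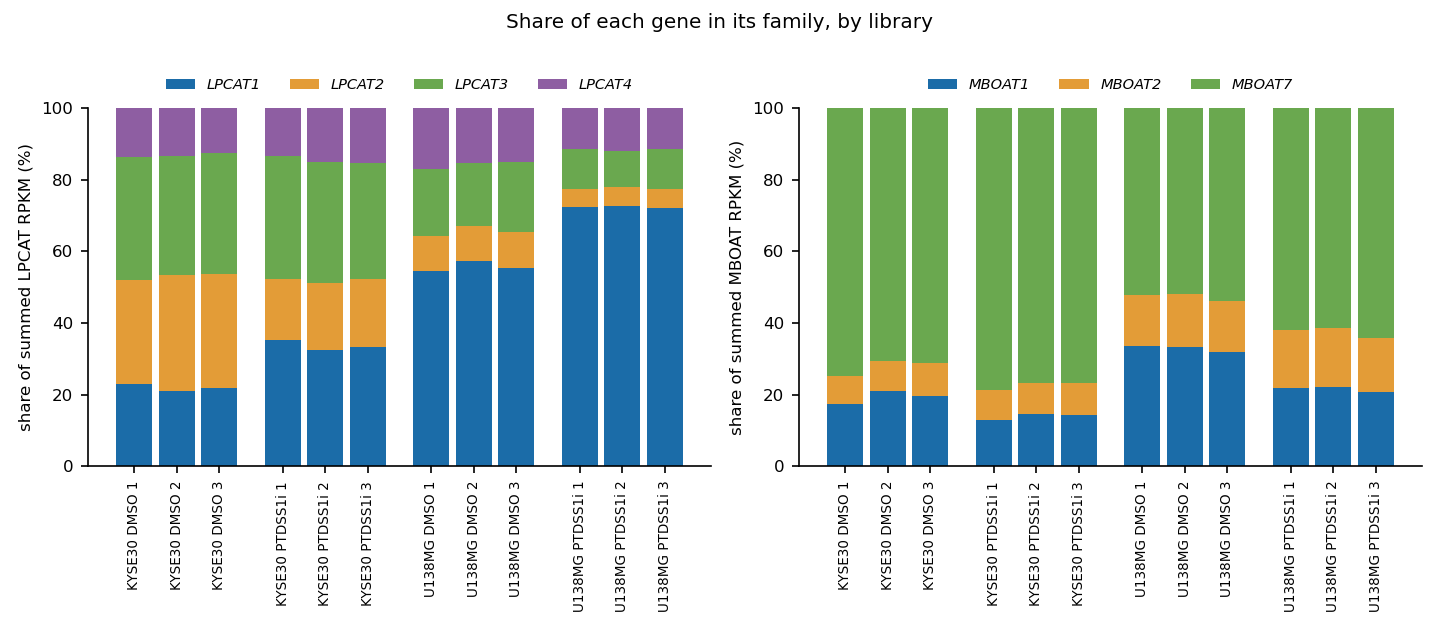
Share of each gene in the summed RPKM of the LPCAT genes (left) and of the MBOAT genes (right), in percent, with 1 stacked bar for each of the 12 libraries. Genes are grouped by symbol, so *LPCAT3* is on the left. *LPCAT1* took 21.97% of the LPCAT sum in KYSE30 DMSO, 33.7% in KYSE30 PTDSS1i, 55.7% in U138MG DMSO and 72.4% in U138MG PTDSS1i, as means of 3 libraries.

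The remodelling genes were set beside 63 other genes of acyl-chain metabolism in 5 lists, also chosen with earlier results of these data known. Of these 63 genes, 48 were tested in KYSE30 and 51 in U138MG. In KYSE30 27 of these rose and 11 fell, and in U138MG 28 rose and 11 fell, beside the backgrounds of 30.1% and 32% and of 33.9% and 33.6% given above. The desaturases and elongases, which make and lengthen the chains, counted 7 of 10 higher and 2 lower in KYSE30, with a median log2 fold change of 0.29, and 8 of 10 higher and 1 lower in U138MG, with a median of 0.75. *SCD*, the desaturase that makes oleate, had the largest rise of this list in KYSE30, from 1566 ± 116 to 6614 ± 159 normalized CPM, a log2 fold change of 2.08 (SE 0.064, edgeR adjusted p = 9.15e-17). *ELOVL6*, which lengthens palmitate to stearate, had the largest rise of the list in U138MG, with a log2 fold change of 1.85 (edgeR adjusted p = 1.22e-24), and the largest fall in KYSE30, with -0.46 (edgeR adjusted p = 0.000261). *SCD5*, a second stearoyl-CoA desaturase, had the one fall of the list in U138MG, at -0.55.

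The acyl-CoA synthetases, which activate fatty acids for the acyltransferases, counted 6 of 8 higher and 1 lower in KYSE30 (median 0.43) and 5 of 8 higher and 2 lower in U138MG (median 0.47). *ACSL1* rose most in KYSE30, from 58.6 ± 1.75 to 129.6 ± 4.02 normalized CPM with a log2 fold change of 1.15 (edgeR adjusted p = 4.99e-14), and *SLC27A2* was its one fall, at -0.82. *ACSL4*, which prefers arachidonic acid, rose most in U138MG, from 60.5 ± 4.32 to 202 ± 4.22 normalized CPM with a log2 fold change of 1.73 (edgeR adjusted p = 5.86e-23), and *ACSL5* fell most, at -0.76. In the annotation, exons of *ACSL4*, *ACSL5* and *SLC27A2* overlap those of other genes.

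Phospholipases A and lysophospholipases counted 10 of 18 higher and 3 lower in KYSE30 (median 0.22) and 12 of 21 higher and 4 lower in U138MG (median 0.26). *PLAAT4*, a phospholipase and acyltransferase of the HRASLS family, had the largest rise of the list in KYSE30, at 1.22 (edgeR adjusted p = 0.00306), and the largest fall in U138MG, at -2.48 (edgeR adjusted p = 2.67e-12). *LIPH*, a phosphatidic acid-selective phospholipase A1, rose most in U138MG, at 1.69, and *PLBD1* fell most in KYSE30, at -0.62. Only genes that averaged 5 normalized CPM or more, with separate libraries, were eligible as the largest change of a list. *PLA2G10* and *PLA2G4F* had at most 3 counts in every library of one U138MG group, and the list median was 0.26 also with both set to their bound.

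The acyltransferases of de novo synthesis counted 3 of 8 higher and 3 lower in each line, with medians of 0.057 and 0.039. *GPAT3* rose in U138MG from 3.57 ± 0.196 to 21.1 ± 1.55 normalized CPM, a log2 fold change of 2.56 (edgeR adjusted p = 2.76e-18). *AGPAT4* rose in KYSE30, at 1.94 (edgeR adjusted p = 4.83e-12), and fell in U138MG, at -0.46 (edgeR adjusted p = 6.27e-07), and *AGPAT5* fell in KYSE30, at -0.65. Of 4 other phospholipid acyltransferases, 1 rose in KYSE30 (*LCAT*, 0.45) and 2 fell, the larger being *TAFAZZIN* at -0.37, and in U138MG 1 fell (*TMEM164*, -0.41) and the other 3 were not called. Exons of *PLBD1*, *LCAT* and *TAFAZZIN* overlap those of other genes in the annotation.

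**Figure D5:**
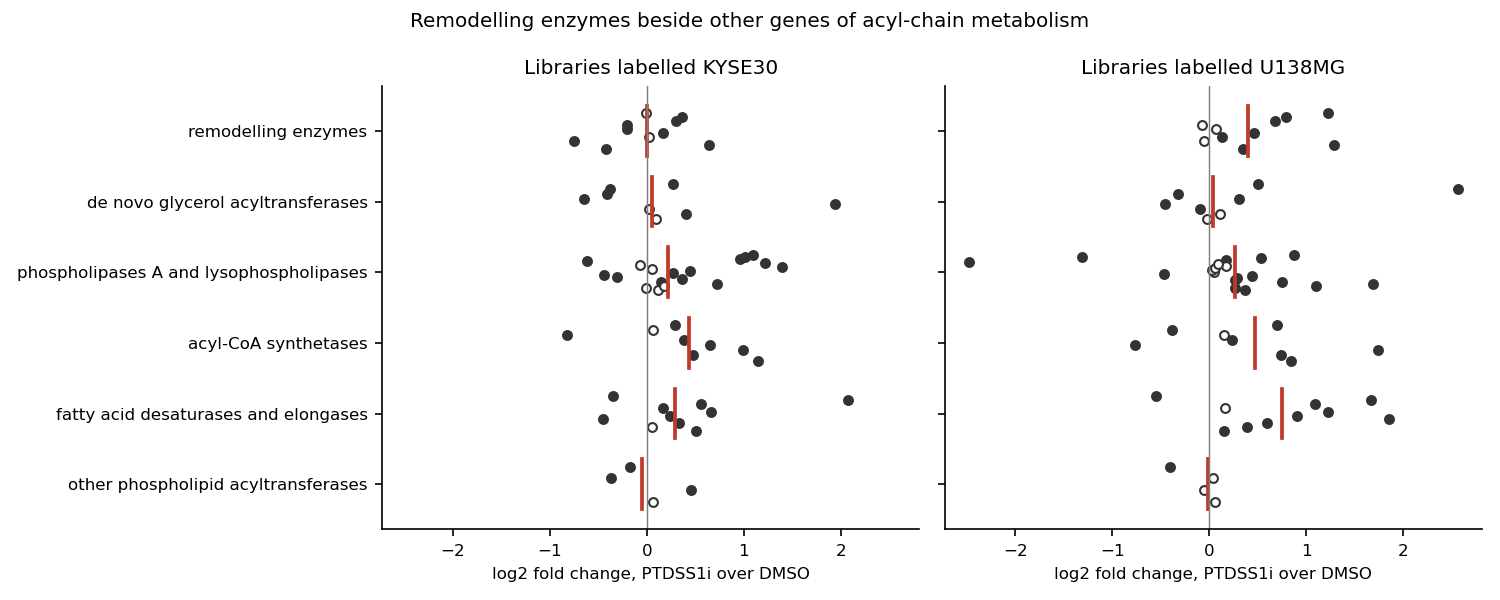
Log2 fold change of PTDSS1i over DMSO for the remodelling enzymes and 5 lists of related genes in KYSE30 (left) and U138MG (right). Filled points passed an adjusted p under 0.05 in edgeR's quasi-likelihood test and red bars are list medians, which for the remodelling enzymes were 0.0053 in KYSE30 and 0.40 in U138MG. *PLA2G10* and *PLA2G4F*, at the count floor in U138MG, are left out of the U138MG points.

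*PTDSS1* itself, the target of the inhibitor, held 165 ± 12.8 normalized CPM in KYSE30 DMSO and 159 ± 4.96 in KYSE30 PTDSS1i and was not called (log2 fold change -0.046, edgeR adjusted p = 0.494). In U138MG it fell from 92.9 ± 3.23 to 71.2 ± 2.87, a log2 fold change of -0.38 (edgeR adjusted p = 1.06e-08). *PTDSS2*, the second phosphatidylserine synthase, was not called in either line, with log2 fold changes of 0.11 in KYSE30 (edgeR adjusted p = 0.128) and -0.049 in U138MG (edgeR adjusted p = 0.677). The inhibitor acts on the enzyme, so the mRNA of *PTDSS1* is no check of the treatment labels.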

How the data were processed

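Poly-A RNA of 12 cultures (KYSE30 and U138MG, DMSO or PTDSS1i, 3 each) was sequenced. The authors deposited 1 table of raw counts per line, whole reads per gene without normalization, and their processing notes name Trimmomatic, STAR, featureCounts and hg38; versions, annotation and strand setting are not given in the sources used here. Groups and replicate numbers are those of the labels.

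The main analysis used edgeR 4.0.16 under R 4.3.3 (filterByExpr, minimum count 10, minimum total 15; TMM; robust quasi-likelihood test; Benjamini-Hochberg adjustment; calls at an adjusted p under 0.05), with DESeq2 1.42.0 as an alternative. Standard errors were derived from the F statistic, with 95% intervals from its degrees of freedom. RPKM used the summed exon length in GENCODE 29. Plots were made with matplotlib 3.10.9 under Python 3.11.15. The code was tested on simulated data.

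Depth was 18800932 to 26514658 counts, so 3 counts equal at most 0.160 CPM, a limit for counting error only. An exact permutation test of 3 against 3 libraries cannot go below p = 0.1, so none is given. The members and lists were chosen with earlier results of these data known. Named beside the 10 genes were, per list, line and direction, the largest called change with at least 5 normalized CPM and no overlap between treatments, and *PTDSS1* and *PTDSS2*. The alternatives were other scalings, DESeq2, other filters, other fold thresholds, a replicate block, both lines in 1 fit, and each library left out.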

Additional observations from a re-analysis of the deposited data

Results flagged for a closer look

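For 8 of the 10 remodelling genes the treatment effect differed between the lines by the interaction of line and treatment (edgeR's quasi-likelihood test, Benjamini-Hochberg adjustment over 18405 genes), with a background of 49.9% of all genes in either direction. Expressed as the log2 fold change in U138MG minus that in KYSE30, the values were 0.60 for *LPCAT1*, 0.65 for *LPCAT2*, 0.25 for *LPCAT4*, 0.34 for *MBOAT2*, 0.39 for *MBOAT7*, 0.72 for *LCLAT1*, 0.23 for *LPGAT1* and 1.19 for *PLA2G4A*. Line, batch and table are the same split here and cannot be told apart. *LCLAT1* was the gene whose fold changes had opposite signs with a call in each line.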

How the results depend on the processing

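Of the remodelling genes' fold changes under the alternatives, 431 kept direction and side of the threshold, 47 lost a call, 5 gained one and 17 turned sign, stricter fold thresholds included. With an absolute log2 fold change over 0.5 the KYSE30 counts were 1 higher and 1 lower, and over 1 they were 0 and 0. The U138MG count of higher genes was 4 over 0.5 and 2 over 1. Over 0.5, 5567 of all 16389 tested genes were called in KYSE30 and 6987 of 17666 in U138MG. Of these calls 46.7% were higher in KYSE30 and 46.1% in U138MG. With library size alone and with the upper quartile the U138MG count of lower genes was 2. Leaving out 1 library gave 3 to 4 higher and 3 to 4 lower in KYSE30, 6 to 7 higher and 0 to 0 lower in U138MG, and 7 to 8 more positive and 0 to 0 more negative differences between lines. Signs turned as follows. In KYSE30, *LPCAT3* was -0.083 with library size alone, -0.0018 with the upper quartile, -0.0013 without DMSO replicate 3 and -0.0064 without PTDSS1i replicate 1, and at most 0.062 with any 1 library left out. *PLA2G4A* was 0.0054 with DESeq2 size factors, 0.0092 by DESeq2, 0.23 without DMSO replicate 2, 0.11 without PTDSS1i replicate 3, at least -0.22 with any 1 library left out, and 0.028 with both lines fitted together. In U138MG, *LPCAT3* was -0.013 and -0.011 and *LPGAT1* -0.078 and -0.077 with library size alone and the upper quartile. In the difference between lines, *LPCAT3* was -0.038 and *MBOAT1* -0.018 with the upper quartile, and *MBOAT1* ranged from -0.0024 without KYSE30 DMSO replicate 2 to 0.15 without KYSE30 DMSO replicate 1. None of these turned values was called, and their cause was not tested. *LPCAT1*, *MBOAT2*, *MBOAT7* and *LCLAT1* were called under all 14 alternatives other than fold thresholds in each line, as were *LPCAT2* and *LPGAT1* in KYSE30 and *LPCAT4* and *PLA2G4A* in U138MG. Depth limits *PLA2G4A* in KYSE30, with 33 to 64 counts.

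The main fits did not pair libraries by replicate number. Same-numbered libraries correlated at 0.075, 0.072 and 0.020 in KYSE30 and at 0.0088, -0.0029 and 0.048 in U138MG over genes. Correlations of this kind cannot decide whether the numbers pair the samples. By its deviations every KYSE30 library correlated best with its own number, a hint of pairing from the data and not the design. This did not hold in U138MG. With the replicate block 10458 genes were called in place of 10165 in KYSE30, 11942 in place of 11919 in U138MG and 9439 in place of 9188 for the difference between lines. Under the replicate block the remodelling genes counted 4 higher and 4 lower in KYSE30, 7 and 0 in U138MG and 8 and 0 for the difference, and *PLA2G4A* in KYSE30 was 0.0029.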
